A study of Mus musculus with 96 samples.

Results

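The 10 genes described here encode chaperones and regulators of the heat shock and stress responses: Hspa1a, Hspa1b, Hsp90aa1, Hsp90ab1, Hspa8, Hsph1, Dnajb1, Hsf1, Ddit3 and Xbp1. They were taken as a list of names, 10 of 36935 gene symbols, and all 10 were in the deposited count table. Their levels were read in counts per 1000000 gene counts of a library (CPM) in 2 classes of single-cell libraries that were set by RNA content and not by stage label. A library was called oocyte-like with Mos, the kinase that holds the mature oocyte at metaphase, at 100 CPM or more. It was called 2-cell-like with Mos under 100 CPM and at least 1 count of Zfp352, a gene switched on in the 2-cell embryo.

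The study profiled single metaphase II oocytes and single blastomeres of 2-cell embryos from a mouse line with the P620A change in PADI6, an oocyte protein of the cytoplasmic lattices. Labels name 22 libraries each from oocytes of Padi6+/+ and of Padi6P620A/P620A females, 22 each from 2-cell embryos of genotype Padi6+/+ and Padi6MatP620A/+ (the variant inherited from the mother), and 8 negative controls. In every cell group the females, 4 to 8 weeks old, had received pregnant mare serum gonadotropin and then human chorionic gonadotropin, and cumulus cells were loosened with hyaluronidase. Embryos came from in vitro fertilisation with sperm of males aged 8 to 12 weeks, their zona pellucida was dissolved and the blastomeres were parted from each other and from the polar body. Messenger RNA with a poly(A) tail was bound to beads, copied with template switching, amplified in 15 PCR cycles and tagmented, with no molecular identifiers named. The change is an amino acid substitution, and counts of Padi6 were not used to check the genotype labels. The labels name no animal or embryo, and blastomeres may share an embryo, so each group counts as 1 sample: no test was run, and the range over libraries is given as the spread.

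Heat shock proteins bind unfolded proteins: members of the Hsp70 family hold and release them in cycles driven by J-domain partners and exchange factors, and the Hsp90 proteins finish the folding of kinases and receptors. HSF1 switches their genes on when unfolded protein builds up, through heat shock elements made of alternating GAA and TTC units. In the mouse, HSF1 stored in the oocyte is known as a maternal factor for early development, and Hspa1a and Hspa1b are known to be transcribed without heat at the start of the embryo's own transcription. Ddit3 and Xbp1 belong to other branches, the integrated stress response and the unfolded protein response of the endoplasmic reticulum.

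Promoter windows from RefSeq (GRCm38.p6, 250 bases before to 50 after a start site) were at hand for 6 of the 10 genes: Hspa1a, Hspa1b, Hsph1, Dnajb1, Ddit3 and Xbp1. Those of the inducible Hsp70 pair and of Hsph1 are shown because they are the windows that held a match to a heat shock element. They lie at chr17:34972107-34972406 (Hspa1a), chr17:34959189-34959488 (Hspa1b) and chr5:149636287-149636586 (Hsph1), all on the minus strand, and capitals mark the matches.
Hspa1a: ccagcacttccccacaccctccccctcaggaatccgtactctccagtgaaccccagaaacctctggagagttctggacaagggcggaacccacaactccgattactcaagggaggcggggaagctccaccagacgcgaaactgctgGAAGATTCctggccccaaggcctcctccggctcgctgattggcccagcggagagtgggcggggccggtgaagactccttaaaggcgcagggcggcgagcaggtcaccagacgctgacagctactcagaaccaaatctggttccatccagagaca
Hspa1b: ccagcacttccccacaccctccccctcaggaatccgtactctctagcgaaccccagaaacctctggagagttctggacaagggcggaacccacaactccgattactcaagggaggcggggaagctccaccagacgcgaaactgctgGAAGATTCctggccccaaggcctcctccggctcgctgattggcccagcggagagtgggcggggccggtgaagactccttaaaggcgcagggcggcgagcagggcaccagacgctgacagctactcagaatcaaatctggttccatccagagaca
Hsph1: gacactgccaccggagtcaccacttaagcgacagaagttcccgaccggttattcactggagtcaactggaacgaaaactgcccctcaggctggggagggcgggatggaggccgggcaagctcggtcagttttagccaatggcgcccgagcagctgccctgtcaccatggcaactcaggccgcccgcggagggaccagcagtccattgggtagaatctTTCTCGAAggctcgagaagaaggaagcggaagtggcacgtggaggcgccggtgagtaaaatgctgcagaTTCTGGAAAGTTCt

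The windows of Hspa1a and Hspa1b were identical at 296 of 300 bases and differed at 4, and both held GAAGATTC at position -104 from the start. Hsph1 held TTCTCGAA at position -33 and, at position 36, TTCTGGAAAGTTC, a match to the 3-unit element that contains a match to each 2-unit form; a second start site of Hsph1 gave a window (chr5:149636266-149636565) with the same matches. Motifs were searched on both strands of all 32851 windows of 27025 genes: GAANNTTC was present in 7.86% of them, TTCNNGAA in 8.52% and the 3-unit element (GAA, TTC and GAA with any 2 bases between neighbours) in 0.603%. The windows of Dnajb1, Ddit3 and Xbp1 held none of these, and none of the 6 genes' windows held the endoplasmic reticulum stress element (CCAAT and CCACG with any 9 bases between, 0.119% of windows), the C/EBP-ATF response element (TGATGCAAT, 0.192%) or TATAAA (13.6%). A match is a run of letters in a window and was not tested as a binding site.

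Of 88 libraries of the 4 cell groups, 73 had at least 100000 counts and 4000 genes with a count: 35 were oocyte-like, 37 were 2-cell-like and 1, library 86, was neither. Oocyte-like libraries carried the labels wild-type oocyte (12), wild-type 2-cell (14) and mutant 2-cell (9), and 2-cell-like ones wild-type oocyte (7), mutant oocyte (19) and mutant 2-cell (11), so the stage label went against the class in most libraries. At the edge of the rule, the lowest Mos level among oocyte-like libraries was 201 CPM (library 61) and the next 740 CPM, and the highest among 2-cell-like ones was 63.3 CPM. Totals ranged from 309429 to 4446517 counts (median 3235838) in oocyte-like and from 503644 to 3185910 (median 1608305) in 2-cell-like libraries. The 11 oocyte markers, with Mos of the class rule among them, had a median share of 3.56% (0.491% to 5.90%) in oocyte-like libraries. In 2-cell-like ones it was 0.622% (0.307% to 1.20%), so the ranges overlapped. The 9 markers of 2-cell embryos found in the table all had counts in 2-cell-like libraries, where they summed to a median of 0.127% of counts against 0.00362% in oocyte-like ones. Zfp352, which the class rule uses, is among these 9 and was at 0 CPM in every oocyte-like library. The rule required at least 1 count of it in 2-cell-like libraries and set no limit on it in oocyte-like ones. Its part of this difference was thus partly set by the rule. The 14 cumulus and granulosa markers, from cells that surround the oocyte, all had counts in oocyte-like libraries (median share 0.0338%, highest 1.16%), while 10 of 14 had any in 2-cell-like ones (highest 0.0139%; Ptx3, Hsd17b1, Fst and Thbs1 at 0).

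Between the classes Ddit3 was higher in 2-cell-like libraries, and Hsp90aa1, Hsp90ab1, Hspa8, Hsph1 and Xbp1 were lower. Of the 10 genes, 8 passed the gene filter (a pooled level of at least 10 CPM in 1 class and a count in at least 50% of its libraries), and all 8 reached 10 CPM in both classes. Xbp1 met the 50% part only in oocyte-like libraries, having a count in 14 of 37 2-cell-like ones and a median of 0 there. Hspa1a and Hspa1b did not pass and were described apart. By medians of library CPM with 1 CPM added, 1 of the 8 was at least 2-fold higher in 2-cell-like libraries, where 16.5% of all 9725 genes that passed were, and 5 were at least 2-fold lower, where 39.2% of all genes were. The median log2 ratio of the 8 was -1.36, against -0.48 over all genes. Hsp90aa1 alone had no overlap between classes, where every 2-cell-like library was lower for 0.339% of genes and higher for 0.267%. The classes were cut from RNA of the same libraries, so these values describe them and test nothing. CPM is a share of a library's counts, so less of a transcript per cell and more of all other RNA cannot be told apart.

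**Figure D1:**
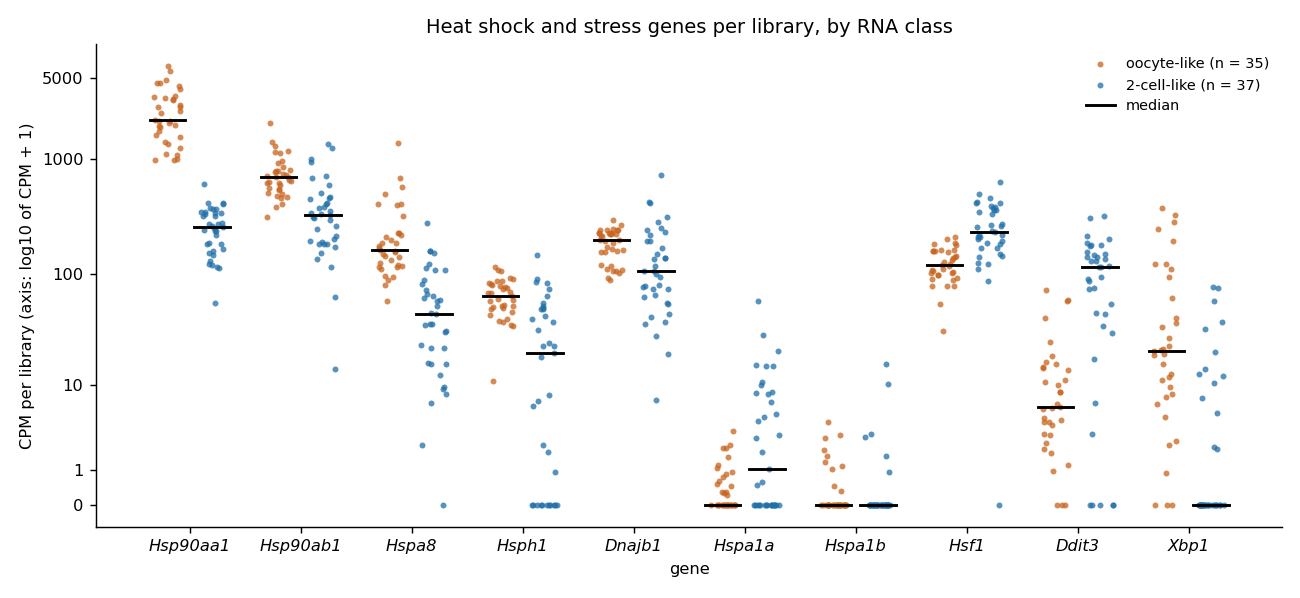
CPM of each gene in single libraries (points; axis of log10 of CPM plus 1) for 35 oocyte-like and 37 2-cell-like libraries, with the median as a bar. Hsp90aa1 separates the classes completely (974 CPM or more against 601 or less), Ddit3 and Hsf1 lie higher in 2-cell-like libraries by median, and most 2-cell-like libraries have no count of Xbp1.

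Hsp90aa1, the stress-regulated cytosolic Hsp90, ranged from 974 to 6368 CPM (median 2182) in oocyte-like libraries and from 55.3 to 601 CPM (median 255) in 2-cell-like ones. No library of either class lay inside the range of the other. The ratio of medians was 8.53-fold lower in 2-cell-like libraries, and the pooled levels, 2771 and 260 CPM, were 10.7-fold apart (exact interval 10.5 to 10.8; all such intervals cover counting error only, since several PCR reads may come from 1 molecule). Hsp90ab1, its constitutive partner, ranged from 308 to 2047 CPM (median 694) against 14.1 to 1351 CPM (median 324). The classes overlapped, with 17 of 37 2-cell-like libraries below every oocyte-like one. Its 2.14-fold lower median became 1.94-fold in pooled levels, under the 2-fold mark, and the log2 ratio of -1.10 became -0.91 without the libraries of at least 0.1% cumulus markers.

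Among the Hsp70 proteins, Hspa8, the constitutive cytosolic member, ranged from 57.0 to 1375 CPM (median 160) in oocyte-like and from 0 to 277 CPM (median 43.9) in 2-cell-like libraries. Of the latter, 21 of 37 lay below every oocyte-like library, and the median was 3.59-fold lower. Hsph1, an Hsp110 protein that exchanges nucleotide on Hsp70, ranged from 10.8 to 113 CPM (median 63.4) against 0 to 145 CPM (median 19.9). It had a count in 35 of 35 oocyte-like and 26 of 37 2-cell-like libraries, with 17 of the latter below and 1 above every oocyte-like library, and its median was 3.09-fold lower.

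Hspa1a and Hspa1b, the heat-inducible Hsp70 genes, were near the limit of detection. Hspa1a ranged from 0 to 3.32 CPM in oocyte-like libraries, with a count in 17 of 35, and from 0 to 56.9 CPM in 2-cell-like ones, with a count in 21 of 37. Although the classes overlapped at 0, 15 of 37 2-cell-like libraries were above every oocyte-like one, and 7 of 37 against 0 of 35 reached 10 CPM. The pooled level was 4.72 CPM from 290 counts against 0.574 CPM from 58 counts, an 8.23-fold difference (6.19 to 11.1). After each library was thinned to 100000 counts, Hspa1a had a count in 11 of 37 and 3 of 35 libraries. Hspa1b had a count in 6 of 37 and 10 of 35 libraries, reached 15.7 and 4.27 CPM, and its pooled ratio was 1.40 (0.960 to 2.02), an interval that includes 1. After thinning it had a count in 2 of 37 and 1 of 35, too few to read an order from. For Hspa1b 48.2% of the 2-cell-like counts came from library 7. The transcripts share 60.4% (Hspa1a) and 62.3% (Hspa1b) of their 50-base windows with other transcripts, mostly each other's, so how reads were divided between them is uncertain. Summed over both genes, the medians were 3.05 and 0.524 CPM, and 9 of 37 against 0 of 35 libraries reached 10 CPM.

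Dnajb1, the J-domain protein that starts Hsp70 cycles in the heat shock response, ranged from 87.0 to 292 CPM (median 195) in oocyte-like and from 7.09 to 721 CPM (median 104) in 2-cell-like libraries. The 2-cell-like libraries reached past the others on both sides, with 16 below and 4 above every oocyte-like one. Its median was 1.86-fold lower, whereas the pooled levels were 171 and 183 CPM. One library, number 45, held 18.9% of the Dnajb1 counts of its class.

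Hsf1, the transcription factor of the response, ranged from 31.3 to 208 CPM (median 118) in oocyte-like and from 0 to 633 CPM (median 233) in 2-cell-like libraries. Of the 2-cell-like libraries 22 lay above every oocyte-like one and 1, with no count, lay below. The ratio of medians was 1.97-fold higher, just short of the 2-fold mark, and the pooled ratio was 2.19-fold (2.14 to 2.25). Across the 37 2-cell-like libraries Hsf1 and Hsp90aa1 had a Spearman rho of -0.59. Across the 35 oocyte-like ones it was -0.02, and that of Hsf1 with Dnajb1 was 0.54. The points share library depth and composition, so these coefficients are descriptions.

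Ddit3 encodes CHOP, a transcription factor induced late in the integrated stress response. It ranged from 0 to 72.0 CPM (median 6.05) in oocyte-like libraries and from 0 to 318 CPM (median 113) in 2-cell-like ones, with a count in 32 of 35 and 32 of 37. After thinning to 100000 counts it had one in 15 of 35 and 30 of 37. Of the as-deposited 2-cell-like libraries, 24 lay above every oocyte-like library, while 5 had no count. The ratio of medians was 16.2-fold higher and the pooled ratio 7.24-fold (6.83 to 7.67), at 102 against 14.1 CPM. Over 11 alternative settings the log2 ratio ran from 2.86 to 6.51 and stayed past 2-fold. The table has 2 entries named Ddit3, one with 94.6% and the other with 5.44% of the counts, which were summed. Their medians, taken apart, were 106 against 6.05 CPM and 5.09 against 0.259 CPM in 2-cell-like and oocyte-like libraries.

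Xbp1, the transcription factor that the sensor IRE1 activates in the unfolded protein response, ranged from 0 to 371 CPM (median 20.7) in oocyte-like and from 0 to 75.7 CPM (median 0) in 2-cell-like libraries. It had a count in 32 of 35 oocyte-like libraries and in 14 of 37 2-cell-like ones, where 3 counts correspond to between 0.942 and 5.96 CPM; after thinning it had one in 23 of 35 and 12 of 37. Of the oocyte-like libraries 9 lay above every 2-cell-like one, and all 9 were among the 10 with at least 0.1% of counts in cumulus markers. With those 10 left out, no oocyte-like library lay above every 2-cell-like one, the median was 11.8 CPM, and the log2 ratio of medians went from -4.44 to -3.67. Over all libraries, those 10 included, the pooled levels, 63.7 and 11.1 CPM, were 5.76-fold apart (5.32 to 6.25). Library 61, among those 10, held 25.6% of the Xbp1 counts of its class, while the other 25 libraries reached at most 40.4 CPM. Pooled levels without the 10 were not taken. Counts per gene do not separate the spliced from the unspliced form.

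Per kilobase of transcript (median CPM divided by exon length in GENCODE M21), oocyte-like libraries were led by Hsp90aa1 at 645 and Hsp90ab1 at 276, followed by Hspa8 at 66.9, Dnajb1 at 60.9, Hsf1 at 52.2, Hsph1 at 15.0, Xbp1 at 8.68 and Ddit3 at 6.80, with Hspa1a and Hspa1b at 0. Neighbours in this order overlapped in their range over libraries, as did Hsp90aa1 (288 to 1883) and Hsp90ab1 (122 to 812). The order in 2-cell-like libraries began with Hsp90ab1 at 129, Ddit3 at 127 and Hsf1 at 103, ahead of Hsp90aa1 at 75.4, Dnajb1 at 32.6, Hspa8 at 18.4, Hsph1 at 4.70 and Hspa1a at 0.348. Neighbours overlapped there too. Levels of Hsp90aa1 and Hspa8 are uncertain in this order, because 58.5% and 73.2% of their 50-base windows also occur in other transcripts, most often those of Gm12346 and of Gm15459. The share was 4.49% for Hsp90ab1, 0.407% for Dnajb1 and 0 for Hsph1, Hsf1, Ddit3 and Xbp1.

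Within the 2-cell-like libraries the number of the genes at least 2-fold apart between labels was near the share of all genes, as given below for each pair of labels. Dnajb1 had its highest median in libraries labelled mutant oocyte, and Hspa1a in those labelled mutant 2-cell. Dnajb1 ranged from 19.4 to 106 CPM (median 55.3) in 7 libraries labelled wild-type oocyte, from 35.7 to 721 CPM (median 194) in 19 labelled mutant oocyte and from 7.09 to 117 CPM (median 73.5) in 11 labelled mutant 2-cell. Of the 19, 16 lay above all 7, and 16 lay above all 11. The median of the mutant oocyte label was 3.46-fold above that of the wild-type oocyte label (3.00 to 3.93 with any 1 library left out; 3.76 pooled), and that of the mutant 2-cell label was 2.61-fold lower than that of the mutant oocyte label.

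For mutant oocyte against wild-type oocyte labels, 8 of the 10 genes passed the filter. Of these 2 were at least 2-fold higher (Dnajb1 and Xbp1) and 1 was at least 2-fold lower (Hsph1), beside 20.1% and 19.3% of 8485 genes. Xbp1 passed only through the mutant oocyte label, where its median was 2.19 CPM against 0, and its log2 ratio of 1.67 was 1.07 without any 1 of libraries 25, 26, 27, 28, 29, 31, 38, 39 and 42. Hsph1, at 7.88 against 18.0 CPM, had a pooled ratio of 0.854, and its log2 ratio of -1.10 ran from -1.75 to -0.23 with 1 library left out, losing the 2-fold mark without any 1 of libraries 2, 5, 7, 25, 26, 27, 29, 31, 33, 39, 41, 43 and 45. Hsp90ab1 ranged from 14.1 to 1002 CPM (median 260) against 312 to 1351 CPM (median 454), with 12 of 19 libraries below all 7. Its log2 ratio of -0.80 passed the 2-fold mark when pooled (-1.45) and without any 1 of libraries 2, 5, 7 and 8 (-1.41 to -1.36).

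Hspa1a ranged from 0 to 28.5 CPM (median 0.583) under the label wild-type oocyte, from 0 to 10.5 CPM (median 0) under mutant oocyte and from 0 to 56.9 CPM (median 9.93) under mutant 2-cell. The groups overlapped, with 5 of 11 libraries of the last above all 19 of the mutant oocyte label. A count was present in 4 of 7, 8 of 19 and 9 of 11 libraries, and in 2 of 7, 2 of 19 and 7 of 11 after thinning. With Hspa1b added, all 11 libraries labelled mutant 2-cell had a count (3.11 to 56.9 CPM, median 10.1). For mutant 2-cell against mutant oocyte labels 9 genes passed: 2 were at least 2-fold higher (Hspa1a and Hsph1) and 2 lower (Dnajb1 and Xbp1), beside 24.0% and 17.5% of 8765 genes. Hspa1a passed only through the mutant 2-cell label and Xbp1 only through the mutant oocyte label, where the same 9 libraries moved its log2 ratio from -1.67 to -1.07. The medians of Hsph1 were 37.6 and 7.88 CPM, but the pooled ratio was 1.62-fold, short of the mark; without any 1 of libraries 25, 26, 27, 29, 31, 33, 39, 41, 43 and 45 the log2 ratio of 2.12 was between 1.25 and 1.29.

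Ddit3 ranged from 0 to 135 CPM (median 73.5), 0 to 199 CPM (median 88.8) and 0 to 318 CPM (median 153) under the labels wild-type oocyte, mutant oocyte and mutant 2-cell, and 3 of the 11 last lay above all 19 mutant oocyte libraries. Hsp90aa1 had medians of 237, 215 and 316 CPM and Hsf1 of 218, 254 and 233 CPM in that order, with overlapping ranges. Summed 2-cell markers also differed between these labels: their median share was 0.142%, 0.0649% and 0.219%, with 6 of 9 markers at least 2-fold lower in mutant oocyte than wild-type oocyte labels and 7 of 9 higher in mutant 2-cell than mutant oocyte labels. Median totals were 1716372, 1939301 and 1290686 counts. Over the 37 libraries Zfp352 had a Spearman rho of -0.61 with Dnajb1, 0.52 with Hsp90aa1, 0.49 with Hsph1, 0.46 with Hspa1a and 0.45 with Ddit3, and of -0.53 with the total. Zfp352 is part of the class rule, and the coefficients run over all of these labels, so they do not stand apart from the label differences. The part of the 2-cell marker level and of depth in these differences was not tested.

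**Figure D2:**
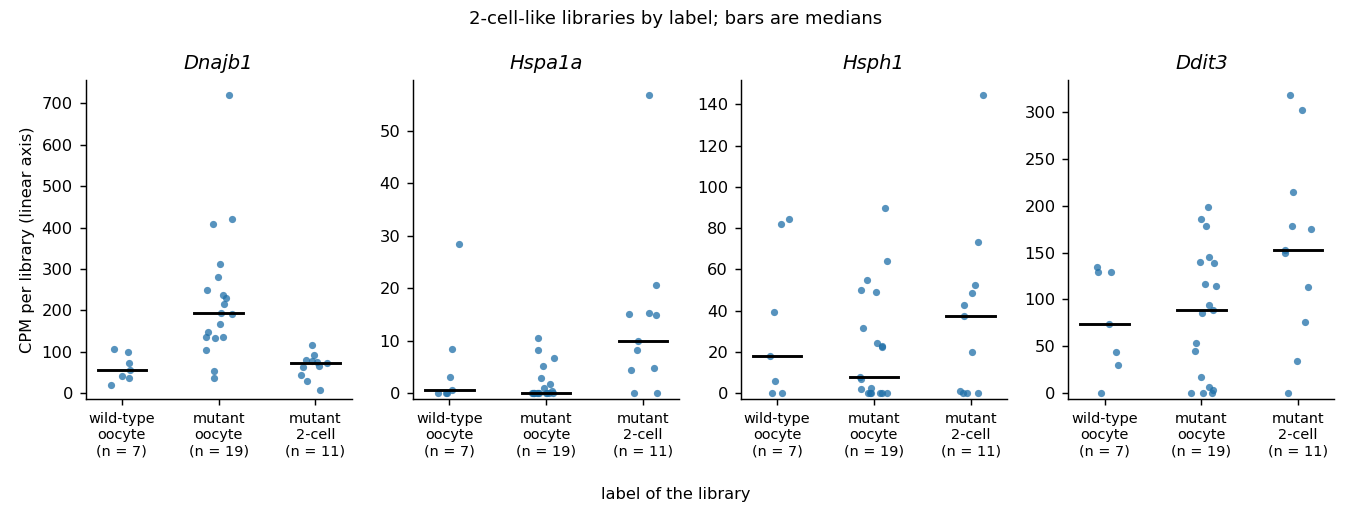
CPM per library (points, linear axes) of Dnajb1, Hspa1a, Hsph1 and Ddit3 in 2-cell-like libraries labelled wild-type oocyte (n = 7), mutant oocyte (n = 19) and mutant 2-cell (n = 11), with medians as bars. Dnajb1 is highest under mutant oocyte (median 194 CPM), and Hspa1a has its highest median, 9.93 CPM, under mutant 2-cell.

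Among oocyte-like libraries, Xbp1, Hspa8, Ddit3 and Hsp90ab1 were higher where cumulus markers took a larger share of counts, and Hsp90aa1 was lower. In the 10 libraries with at least 0.1% of counts in these markers, Xbp1 ranged from 61.6 to 371 CPM (median 157), and in the other 25 from 0 to 40.4 CPM (median 11.8). These sets did not overlap. Hspa8 had a median of 406 CPM (216 to 1375) in the 10 against 140 CPM (57.0 to 228) in the 25, and Hsp90ab1 of 1136 CPM (770 to 2047) against 610 CPM (308 to 919). Ddit3 had a median of 21.7 CPM (8.49 to 72.0) against 4.24 CPM (0 to 15.5). The direction was opposite for Hsp90aa1, with a median of 1242 CPM (974 to 2938) against 2828 CPM (1243 to 6368). Dnajb1 and Hsf1 also had lower medians in the 10, at 157 against 220 CPM and 104 against 138 CPM. Hsph1 had a higher one, at 73.6 against 60.2 CPM, and the ranges of these genes overlapped. Over the 35 libraries the Spearman rho with the marker share was 0.90 for Xbp1, 0.83 for Hspa8, 0.75 for Ddit3, 0.73 for Hsp90ab1 and -0.57 for Hsp90aa1. The part of cumulus cell RNA in these levels was not tested. Library 86, with cumulus markers at 0.661% and 8 of 11 oocyte markers at 0, had Xbp1 at 313 CPM, Hspa8 at 1171 CPM, Hsp90ab1 at 2427 CPM and Hsp90aa1 at 822 CPM.

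**Figure D3:**
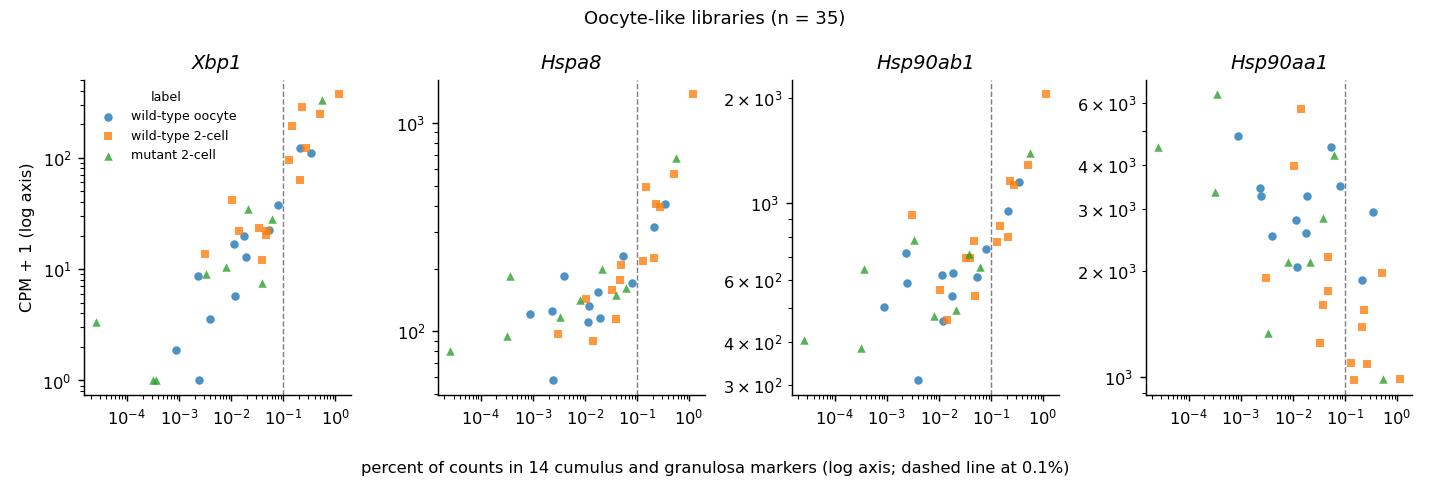
CPM plus 1 (log axis) of 4 genes against the percent of counts in 14 cumulus and granulosa markers (log axis) in 35 oocyte-like libraries, marked by label, with a dashed line at 0.1%. Xbp1, Hspa8 and Hsp90ab1 are higher and Hsp90aa1 is lower to the right of the line.

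For oocyte-like libraries labelled mutant 2-cell (9) against wild-type 2-cell (14), 8 genes passed, 0 were at least 2-fold higher and 2 were lower (Ddit3 and Xbp1), beside 1.31% and 20.3% of 9573 genes. Ddit3 had medians of 4.24 and 12.2 CPM, with 3 of 9 below all 14. Xbp1 had medians of 8.11 and 51.0 CPM, with 6 of 9 below all 14. Cumulus markers were lower as well, in 12 of 12 that passed, at median shares of 0.00798% and 0.0891%. With only libraries under 0.1%, the log2 ratio was -0.47 for Ddit3, short of the 2-fold mark, and -1.39 for Xbp1.

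By label alone, as the study grouped the libraries, each comparison mixed the RNA classes, and groups were compared by pooled CPM. Among libraries labelled oocyte, mutant against wild type had 1 of 8 genes at least 2-fold higher (Ddit3, 95.8 against 24.3 CPM) and 4 lower (Hsp90aa1, Hsp90ab1, Hspa8 and Hsph1), beside 16.8% and 22.7% of 9122 genes. All 19 mutant oocyte libraries were 2-cell-like, against 7 of 19 wild-type ones. Within 2-cell-like libraries of the same labels, the pooled mutant level was 1.03 times the wild-type one for Hsp90aa1, 1.41 times for Ddit3 and for Hspa8, and 0.854 times for Hsph1, whose medians were 2.14-fold apart. The pooled level of Hsp90ab1 was 2.72-fold lower there (1.74-fold by medians), against 2.45-fold over all libraries of the labels. Without library 17 Hspa8 lost the 2-fold mark (log2 ratio -0.96), and without library 18 Dnajb1 passed it (1.07, from 0.91). The log2 ratio of Xbp1, -0.92, passed the mark without any 1 of libraries 10, 18, 19, 20, 27 and 31 and was lowest, at -1.48, without library 31.

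Among libraries labelled 2-cell, mutant against wild type had 1 gene at least 2-fold higher (Ddit3) and 1 lower (Xbp1), beside 7.88% and 11.8% of 9996 genes. All 14 wild-type libraries were oocyte-like, against 9 of 21 mutant ones. Ddit3 in the mutant label had a median of 4.24 CPM in its oocyte-like and of 153 CPM in its 2-cell-like libraries. The log2 ratio of Xbp1, -1.61, was -2.43 without library 86.

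For 2-cell against oocyte, the wild-type label had 2 genes at least 2-fold higher (Hspa8 and Xbp1) and 0 lower, beside 17.6% and 3.65% of 9688 genes. Hspa8 lost the mark without library 61 (log2 ratio 0.63, from 1.26). The mutant label had 5 higher (Hsp90aa1, Hsp90ab1, Hspa8, Hsph1 and Xbp1) and 0 lower, beside 23.0% and 10.2% of 9164 genes. Without library 86 Hsp90ab1 (0.89), Hspa8 (0.94) and Xbp1 (0.59) lost the mark, and Xbp1 also lost it without library 87 (0.97). Comparisons that use the same libraries are not independent of each other.

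**Figure D4:**
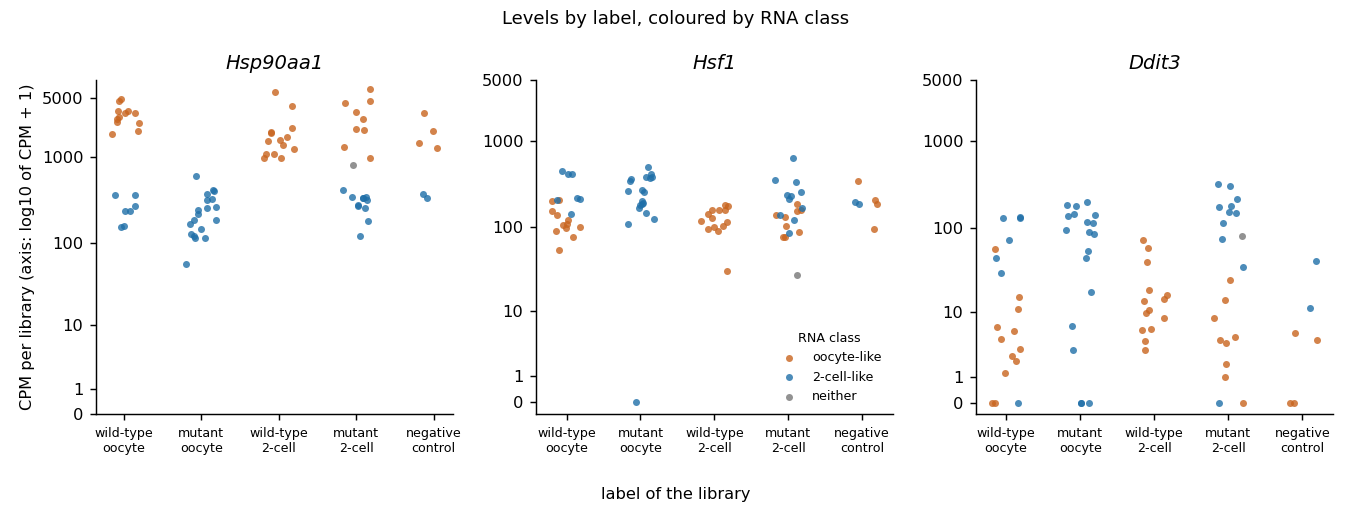
CPM per library (points; axis of log10 of CPM plus 1) of Hsp90aa1, Hsf1 and Ddit3 by label, coloured by RNA class. The Hsp90aa1 levels of wild-type oocyte and mutant 2-cell labels fall into separate clouds that follow the class, 974 CPM or more for oocyte-like and 601 CPM or less for 2-cell-like libraries.

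The 6 negative-control libraries that passed the filter carried the genes at cell-like levels. Their medians were 1388 CPM for Hsp90aa1, 611 CPM for Hsp90ab1 and 306 CPM for Dnajb1, and 4 met the oocyte-like and 2 the 2-cell-like rule. These libraries give no measure of a well without RNA from a cell.

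Other genes of these pathways were read from 8 lists that do not include the 10 genes. The oocyte-like class was taken whole, with its 10 libraries of at least 0.1% cumulus markers, and no list values without those libraries are given. In 2-cell-like against oocyte-like libraries, the unfolded protein response list had 16 of 26 genes at least 2-fold lower and 2 higher, with a median log2 ratio of -1.60. Pdia6, a protein disulfide isomerase, had medians of 3.35 and 163 CPM with no overlap between classes, and Atf6b and Derl1 had medians of 0 against 29.3 and 24.8 CPM. Dnajb9, a chaperone of the endoplasmic reticulum named after its values were seen, was higher, at 188 against 8.85 CPM. The integrated stress response list had 4 of 13 genes higher and 5 lower (median -0.65). Sesn2, a stress-induced regulator of growth signalling, had medians of 112 and 0.354 CPM. Psat1, an enzyme of serine synthesis, had medians of 14.9 and 0 CPM, whereas Nupr1 and Cebpb were at 0 against 21.6 and 8.41 CPM. Atf6b, Derl1, Nupr1 and Cebpb, with a median of 0 in 2-cell-like libraries, passed the gene filter only through the oocyte-like class. Psat1, with a median of 0 in oocyte-like libraries, passed it only through the 2-cell-like class. The counts of genes given for these lists include them.

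The Hsp70 and Hsp110 list had 1 of 9 genes higher (Hspa2, 38.7 against 2.94 CPM) and 3 lower (median -0.59), among them Hyou1, the Hsp110 of the endoplasmic reticulum, at 3.69 against 53.4 CPM. The Hsp90 list had 0 of 13 higher and 3 lower (median -0.23): Trap1, the mitochondrial Hsp90, at 0.462 against 19.5 CPM, Chordc1, a co-chaperone, at 2.04 against 38.5 CPM, and Hsp90b1, the Hsp90 of the endoplasmic reticulum, at 124 against 324 CPM. J-domain proteins and exchange factors had 2 of 14 higher (Bag4 and Bag3) and 3 lower (median 0.11), and small heat shock proteins and chaperonins had 2 of 12 higher (Hspe1 and Cct6a) and 5 lower (median -0.52). Of 3 heat shock factors and regulators that passed, Hsf5 was lower, at 18.7 against 58.7 CPM. The oxidative stress list had 3 of 16 higher and 6 lower (median -0.51), with Hmox1, which degrades heme, at 39.2 against 1.17 CPM. These counts stand beside 16.5% higher and 39.2% lower over all genes.

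**Figure D5:**
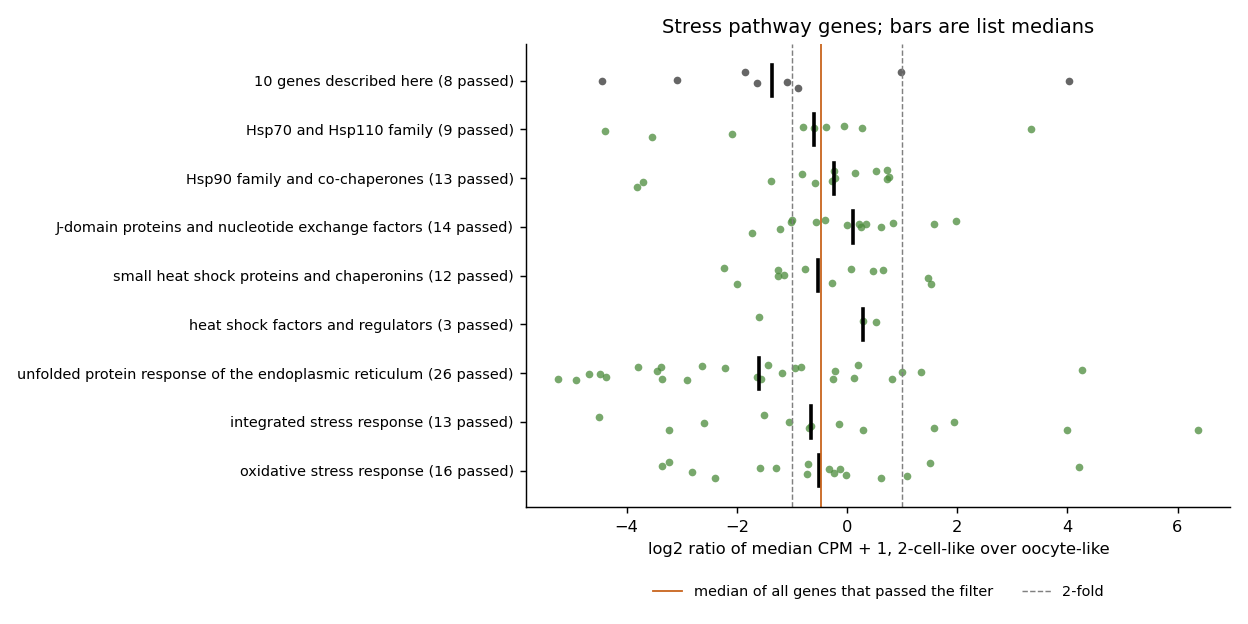
Log2 ratio of median CPM plus 1, 2-cell-like over oocyte-like, for each gene (points) that passed the filter in the 10 genes and 8 pathway lists, with list medians as bars, dashed lines at 2-fold and the median of all genes (-0.48) as a line. The unfolded protein response list has its median furthest to the left (-1.60), and Ddit3 and Sesn2 lie far to the right.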

How the data were processed

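Raw gene counts, whole numbers with no normalization, were deposited by the authors for 96 libraries. Reads were trimmed with Trim Galore 0.4.4 and aligned with HISAT2 2.1.0 to GRCm39, and DESeq2 was used, per the submitters' processing notes; the counting tool, annotation and strand setting are not given in the sources used here. Repeated gene entries (48 of 36983) were summed by symbol, which left 36935. Libraries needed 100000 counts and 4000 genes with a count, and 0 libraries lacked a matching label. The classes of the report were compared by medians of CPM with 1 CPM added, and the labels by pooled CPM. Genes at least 2-fold apart were called. A gene was compared with a pooled level of 10 CPM in either group and a count in 50% of the libraries of the higher one. With no animal named, each group counted as 1 sample, and no test was run. Intervals are exact 95% conditional binomial intervals.

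The genes and the pathway lists were chosen with earlier results of these data known. All 10 genes were named, as were up to 4 genes of each list with the largest ratio between classes and the 3 genes with the most similar pattern, of which the text gives a part; 1 is not reported here. Alternatives were TMM factors (edgeR 4.0.16) and DESeq2 1.42.0 size factors, pooled CPM or medians, stricter or no filters, Mos at 50 or 500 CPM, Zfp352 at 10 CPM, thinning, negative controls included, and each library left out. Restriction to libraries under 0.1% of cumulus markers, where applied to labels, and all alternatives within a class were added after seeing the data. Library composition bears on CPM: from TMM and DESeq2 factors the median log2 ratio of all genes between classes shifted by -0.21 and -0.34. Python 3.11.15, pandas 2.3.3, numpy 2.4.6, scipy 1.17.1 and R 4.3.3 were used, and the comparison was tested on simulated data. Exon lengths and shared 50-base windows came from GENCODE M21, an earlier build than the counts, so no coordinates of the counted genes are given; promoter coordinates are those of GRCm38.p6.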

Additional observations from a re-analysis of the deposited data

Results flagged for a closer look

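In groups of 4 to 10 libraries, 29 pairs of a gene and a group were examined for a library far from the others. Of these pairs, 11 had such a library. A chance rate of about 1 in 20 would need independent pairs and evenly spread values. It cannot be used as a baseline here. Several pairs share a library, some genes had a count in a single library of the group, and the negative controls mix both classes. Library 87, an oocyte-like library labelled mutant 2-cell, stood apart from the other 8 of its group for Hsp90ab1 (1384 CPM, next 780), Hspa8 (680 CPM, next 198) and Xbp1 (327 CPM, next 33.6). Among the 7 2-cell-like libraries labelled wild-type oocyte, Hspa1a was 28.5 CPM in library 6 (next 8.48), and library 7 was the single one with a count of Hspa1b (15.7 CPM) and of Xbp1 (37.3 CPM).

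Among the 6 negative-control libraries, number 47 stood apart for Hspa1a (10.2 CPM, others 0) and Ddit3 (40.9 CPM, next 11.2), and number 23 for Hspa1b (10.9 CPM, others 0), Hspa8 (420 CPM, next 168) and Xbp1 (209 CPM, next 9.90). Number 47 met the 2-cell-like rule, and number 23 met the oocyte-like rule with 0.517% of counts in cumulus markers. Over the negative controls the medians were 1388 CPM for Hsp90aa1, 611 CPM for Hsp90ab1 and 306 CPM for Dnajb1, in libraries that belong to no comparison. Library 86, which met neither class rule, had Xbp1 at 313 CPM and Hspa8 at 1171 CPM.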

How the results depend on the processing

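Between the classes, all 8 genes that passed kept the direction of their log2 ratio under the 11 alternatives, and 1 was higher and 5 lower with any 1 library left out; 2 were higher with pooled CPM and 2 with no gene filter. With pooled CPM Hsf1 passed the mark (1.13) and 4 were lower, since Hsp90ab1 missed it (-0.96). With TMM and with DESeq2 factors 6 were lower, Dnajb1 added (-1.14 and -1.21). Under 0.1% cumulus markers 5 were lower, Hsp90ab1 missing the mark (-0.91) and Dnajb1 passing it (-1.07). For mutant against wild type, libraries labelled oocyte had 2 genes higher under the stricter library filter (1 to 2 higher and 3 to 5 lower with 1 library left out). Libraries labelled 2-cell had 2 lower with TMM, 2 with DESeq2 factors and 4 with medians, and 2 higher with no gene filter (1 higher and 1 to 2 lower with 1 left out). For 2-cell against oocyte, the wild-type label had 1 gene higher with medians, 1 higher and 1 lower under 0.1% cumulus markers, and 1 lower with no gene filter (1 to 2 higher and 0 lower with 1 left out). The mutant label had 1 higher and 1 lower with medians and 2 higher under 0.1% cumulus markers (2 to 5 higher and 0 lower with 1 left out). There the log2 ratio of Xbp1, 1.41, turned to -0.0563 with medians and -0.47 under 0.1% cumulus markers; the cause was not tested.

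Within 2-cell-like libraries, mutant 2-cell against mutant oocyte labels had 1 gene higher and 1 lower with pooled CPM (1 to 2 and 1 to 2 with 1 left out), and mutant against wild-type oocyte labels 1 to 2 higher and 0 to 2 lower with 1 left out. Oocyte-like mutant 2-cell against wild-type 2-cell labels had 1 lower under 0.1% cumulus markers (0 higher and 2 lower with 1 left out). The share of higher among all genes called moved from 42.4% to 31.3% with TMM for mutant against wild-type oocyte labels, from 40.0% to 26.2% with DESeq2 factors for the 2-cell labels and from 69.2% to 80.8% with DESeq2 factors for the stages in the mutant label, and from 29.6% to 42.2% with pooled CPM between classes. No paired analysis was possible because the label numbers run over all libraries and no 2 groups share one. Depth limits Hspa1a, Hspa1b and Xbp1 in 2-cell-like libraries, where 3 counts are up to 5.96 CPM.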

Other observations

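Other genes of the integrated stress response, and Hmox1 of the oxidative stress list, were read beside Ddit3, chosen after their values were seen. They include all 4 genes of the integrated stress response list that were at least 2-fold higher in 2-cell-like libraries. Its 5 lower genes were left out here: Nupr1, Cebpb, Ddit4 (10.6 against 69.3 CPM), Eif2ak1 (81.4 against 232 CPM) and Eif2s1 (20.2 against 42.8 CPM). Atf4, the transcription factor upstream of Ddit3, ranged from 0 to 348 CPM (median 126) in 2-cell-like and from 5.29 to 411 CPM (median 31.9) in oocyte-like libraries, with no 2-cell-like library above all oocyte-like ones. Sesn2 had a count in 33 of 37 2-cell-like libraries and in 19 of 35 oocyte-like ones, and 23 of the 37 were above all 35. Trib3, a pseudokinase that CHOP and ATF4 are known to induce, had a count in 20 of 37 and 11 of 35 libraries, and 11 of the 37 were above all 35. Over the 37 libraries the Spearman rho of Ddit3 was 0.56 with Sesn2, 0.54 with Ppp1r15a, 0.51 with Trib3, 0.44 with Atf4, 0.17 with Hmox1 and 0.11 with Psat1. The order differed over the 35 oocyte-like libraries: 0.73 with Psat1, 0.69 with Hmox1, 0.64 with Atf4, 0.53 with Sesn2, 0.18 with Trib3 and 0.17 with Ppp1r15a. By label the medians of Sesn2 were 41.7, 46.4 and 217 CPM for wild-type oocyte, mutant oocyte and mutant 2-cell, an order that Ddit3 shared. Dnajb9, which XBP1 and ATF6 are known to induce, was above all oocyte-like libraries in 29 of 37 2-cell-like ones, while Xbp1 had no count in 23 of the 37.

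In 2-cell-like libraries labelled mutant oocyte against wild-type oocyte, 6 of 14 J-domain proteins and exchange factors and 8 of 22 unfolded protein response genes were at least 2-fold higher, and 1 and 0 lower, beside 20.1% higher and 19.3% lower over all genes. The other chaperone lists had 1 of 8 (Hsp70 and Hsp110), 3 of 13 (Hsp90 and co-chaperones) and 1 of 11 genes higher (small heat shock proteins and chaperonins), with 0, 0 and 1 lower. Ern1, which encodes the sensor IRE1, had medians of 184 and 17.3 CPM, with 14 of 19 libraries above all 7. Sel1l, of the degradation complex of the endoplasmic reticulum, had 26.9 and 4.06 CPM, also with 14 of 19. The oxidative stress list had 1 of 14 genes higher and 5 lower, among them Hmox1 at 31.0 against 120 CPM. The higher one was Sqstm1, at 21.2 against 0 CPM, which passed the filter only through the mutant oocyte label. The median log2 ratio of this list was 0.24, against -0.04 over all genes. The integrated stress response list had 1 of 10 higher and 1 lower, and heat shock factors and regulators had 0 of 3 higher and 0 lower.

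Among the 8675 genes ranked over oocyte-like libraries, the one most like Hsp90aa1 was Cenpf (Spearman rho 0.95), and those most like Xbp1 were Tapbp (0.95), Mrfap1 (0.95) and Ints11 (0.94). Those most like Dnajb1 were Ap1m2 (0.80), Fdft1 (0.77) and Padi6 (0.74). Among 8491 genes over 2-cell-like libraries, Dnajb1 was most like Gm19784 (0.79), Oas1c (0.76) and Gm43069 (0.75), and Ddit3 most like Nhp2 (0.72), Ergic3 (0.69) and Actb (0.69). These coefficients are over 35 and 37 libraries that share depth and composition.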
